A study of Mus musculus with 12 samples.

Results

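The mitosis genes are a list of 42 genes whose products drive cells from the end of interphase through chromosome condensation, spindle assembly, chromosome separation and the splitting of the cell. They were chosen by name, with earlier results of these data known, from a table of 55421 genes. All 42 were found there as 1 row each. All 42 also reached 1 TPM in at least 3 of the 12 libraries, the condition for being tested, as did 14510 genes in all. TPM is a transcript abundance corrected for length, with every library scaled to a common total. Epithelial cells of the mouse jejunum, part of the small intestine, were profiled by bulk RNA-seq. The 4 groups of 3 libraries each were Ctrl and Fzd5KO, a knockout of the Wnt receptor gene Fzd5, each at day 1 and at day 3.

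The sources used here do not give the strain, the age, the cells in which Fzd5 was deleted, what drove the deletion or the event from which the days count. They also do not tie replicates to separate animals. A p-value here is therefore measured against the spread between libraries, which may be technical. Fzd5 itself was at 46.6 ± 2.94 TPM in Ctrl day 1 and 32.7 ± 0.694 TPM in Fzd5KO day 1 (mean ± SD, n = 3), a change of −0.50 ± 0.055 (adjusted p = 0.000151) on the log2 scale. At day 3 it was at 64.8 ± 3.95 TPM in Ctrl and 38.6 ± 0.969 TPM in Fzd5KO, a change of −0.73 ± 0.055 (adjusted p = 4.42e-07). The 16 intestinal epithelium markers, such as Epcam and Vil1, were above 0 in every group, with summed levels of 19098 to 19868 TPM in Ctrl day 1. A library held 21506 to 24467 genes above 0, the most in Ctrl day 1 replicate 1. TPM keeps no sequencing depth, so counting error is unknown.

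The jejunal epithelium is renewed from crypts, where stem cells and their dividing daughters supply the absorptive and secretory cells of the villus. Wnt signals received by Frizzled receptors maintain this division. Cyclin B and Cdk1 start mitosis, condensins and topoisomerase II compact and untangle the chromosomes, and kinetochores attach them to the spindle. A checkpoint delays anaphase until all are attached, after which the anaphase-promoting complex and its partner Cdc20 release the chromosomes and the central spindle guides the cell's division. Most of these genes are transcribed late in the cell cycle. They are held off in resting cells and early G1 by the DREAM complex, and switched on by MuvB with B-Myb and by FoxM1. DREAM and MuvB bind a promoter element called the cell cycle genes homology region (CHR), and NF-Y, another activator of these genes, binds CCAAT.

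RefSeq promoter windows on GRCm38.p6, from 250 bases before to 50 after a transcript start, matched 35 of the 42 members by symbol, with 38 windows. Aurkb, Tpx2, Incenp, Smc4, Ccna2, Cdc25c and Kif20a had no entry. The letters TTTGAA or TTCGAA for the CHR and CCAAT were searched on both strands, and matches were kept whether or not they overlapped. A CHR match was in 31 of the 38 windows (81.6%), against 19.2% of all 32851 windows and 14.4% of the 12365 windows of tested genes. CCAAT was also in 31 of 38 (81.6%), against 37.4% of all windows and 38.2% of those of tested genes. Both were in 28 of 38 (73.7%), against 7.52% and 5.98%. In the 100 bases before the start alone, CHR was in 23.7%, CCAAT in 68.4% and both in 18.4% of member windows, against 6.13%, 18.9% and 1.14% of all windows. The 120 bases before the start are shown for 4 members with both motifs there and, as a contrast, for Mad2l1, which has neither in its window. They run 5′ to 3′ on the gene's strand, with the matches in capitals. ATTGG and TTCAAA are CCAAT and TTTGAA read from the other strand.
Cdk1 (chr10:69352913-69353032, minus strand): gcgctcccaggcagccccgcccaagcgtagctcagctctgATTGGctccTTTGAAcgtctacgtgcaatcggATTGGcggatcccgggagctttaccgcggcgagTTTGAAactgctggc
Top2a (chr11:99024190-99024309, minus strand): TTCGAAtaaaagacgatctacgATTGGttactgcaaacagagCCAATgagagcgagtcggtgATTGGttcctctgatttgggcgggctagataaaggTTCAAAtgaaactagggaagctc
Cdc20 (chr4:118437344-118437463, minus strand): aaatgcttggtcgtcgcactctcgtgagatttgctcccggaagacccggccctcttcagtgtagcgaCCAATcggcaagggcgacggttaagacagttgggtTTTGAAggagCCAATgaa
Kif11 (chr19:37376262-37376381, plus strand): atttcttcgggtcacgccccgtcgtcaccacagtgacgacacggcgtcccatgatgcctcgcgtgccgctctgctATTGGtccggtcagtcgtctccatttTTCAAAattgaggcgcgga
Mad2l1 (chr6:66535101-66535220, plus strand): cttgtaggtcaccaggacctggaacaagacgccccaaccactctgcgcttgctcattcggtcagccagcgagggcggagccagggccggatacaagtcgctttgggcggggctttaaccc

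These matches describe letters in the windows and show no binding. The median change between Fzd5KO and Ctrl at day 3 was −0.90 (log2) for the 25 members with both motifs, −0.94 for the 6 with 1 of them, −0.98 for the 4 with neither and −0.91 for the 7 without an entry. The 4 with neither were Nuf2, Mad2l1, Birc5 and Nusap1. The 4 medians were not tested against each other.

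As a list, the mitosis genes were highest in Ctrl at day 3 and lowest in Fzd5KO at day 3. Their summed level was 929 to 964 TPM over the 3 libraries of Ctrl day 1, 788 to 791 TPM in Fzd5KO day 1, 1166 to 1236 TPM in Ctrl day 3 and 597 to 641 TPM in Fzd5KO day 3. No library of 1 group reached the range of another. For 37 of the 42 members the group means ran in that same order, Ctrl day 3, Ctrl day 1, Fzd5KO day 1, Fzd5KO day 3, against 20.8% of all tested genes. For 21 of 42 they did so with no overlap between the libraries of neighbouring groups, against 3.16% of tested genes. The 5 members with another order were Aurka, Smc2, Spc25, Bub1b and Hmmr. The order was read from these same members, so the counts describe it and lend it no separate support. They also hold for TPM as deposited. Under some other scalings, given below, Ccnb2, Cdk1, Plk1, Nek2, Bub1, Mad2l1, Birc5 and Ube2c changed sign between Ctrl and Fzd5KO at day 1. Cdc25c, Ndc80 and Kif23 changed sign over time in Ctrl. In a bulk sample, fewer dividing cells and less RNA of these genes per cell cannot be told apart.

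**Figure D1:**
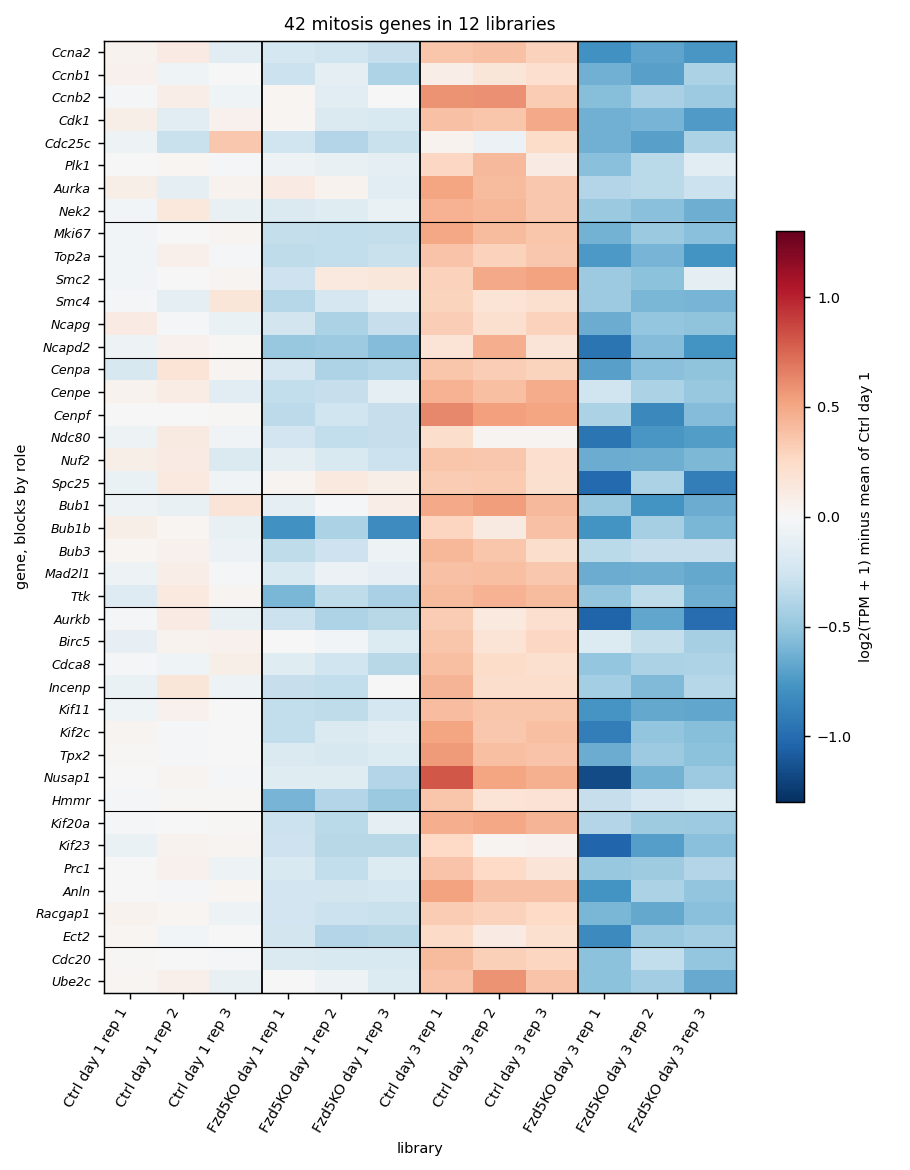
Level of each of the 42 mitosis genes (rows, blocked by role) in each of the 12 libraries (columns), as log2(TPM + 1) minus the mean of the 3 Ctrl day 1 libraries, red above and blue below it. Ctrl day 3 columns are red and Fzd5KO day 3 columns blue for nearly every gene, while Fzd5KO day 1 columns are paler.

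At day 1 the mitosis genes were modestly lower in Fzd5KO. In limma's test, with Benjamini-Hochberg adjustment over all 14510 genes and a call at an adjusted p under 0.05, 23 of 42 members fell and 0 rose, against 22.8% of all tested genes called lower and 2.13% called higher. The median change of the members was −0.24 (log2) beside −0.14 for all tested genes. The Ctrl and Fzd5KO libraries did not overlap for 27 members, all lower in Fzd5KO, against 38.9% of tested genes. The size of this result depended on the scaling. With quantile normalization, which moved the median of all genes by 0.14, 5 members fell. The shift was 0.15 with median-of-ratios scaling, which left 5, and TPM rescaled without the most abundant and noncoding genes left 8. Mki67, Top2a, Ncapd2, Bub1b and Hmmr were called lower under every one of the 24 settings tried, although the level of Ncapd2 is uncertain, since its exons overlap other genes. Ccnb2, Cdk1, Plk1, Nek2, Bub1, Mad2l1, Birc5 and Ube2c, which did not pass at day 1, had a change above 0 under 1 or more of the other scalings. Relative to the median of all genes, the members' median was −0.10 as deposited and −0.091 to −0.11 under the other scalings. The percentages of tested genes called higher and lower changed as well, to 5.86% and 6.34% with quantile normalization, 9.55% and 5.72% with scaling by median of ratios, 6.29% and 9.99% with rescaled TPM. The count of members also fell to 15 without Ctrl day 1 replicate 1, 13 without Ctrl day 1 replicate 2 and 11 without Fzd5KO day 1 replicate 2, and to 13 with no filter on low values. The share of all tested genes called lower in these last fits is not given here. Their counts therefore do not show if the members stood out from all genes.

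At day 3 every one of the 42 members was lower in Fzd5KO, and all 42 passed the test. Of all tested genes 38.5% were called lower and 24.3% higher. The median member change was −0.91 (log2), which left 53.2% of the Ctrl level on the TPM + 1 scale, beside −0.14 for all tested genes. In all 42 the 3 Fzd5KO libraries lay below the 3 Ctrl libraries, as they did for 40.8% of tested genes. The changes ran from −1.34 for Nusap1 to −0.47 for Hmmr. Leaving out any 1 of the 12 libraries left 42 called, and 41 were called under every setting tried. The exception was Cdc25c with quantile normalization, at −0.39 (adjusted p = 0.0586). Median-of-ratios scaling called 31.96% of tested genes higher and 28.8% lower, and still called 42 members lower. The day 3 and day 1 comparisons use different libraries.

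**Figure D2:**
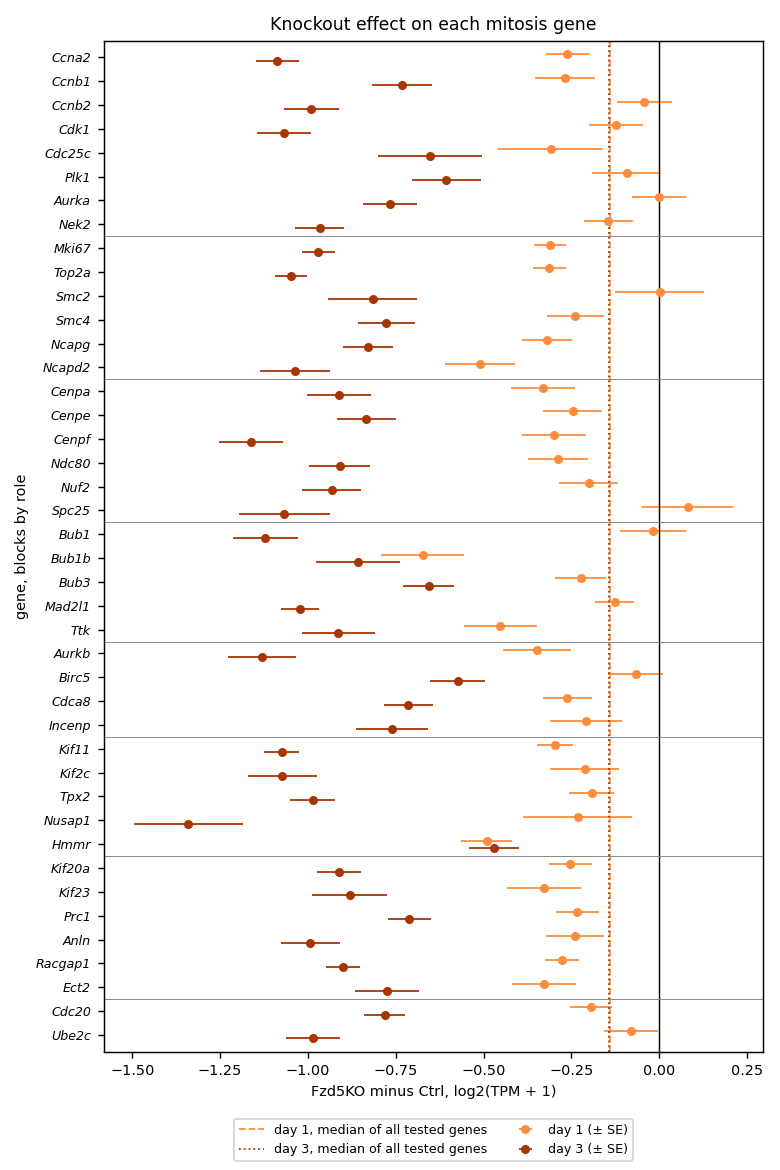
Fzd5KO minus Ctrl for each mitosis gene on the log2(TPM + 1) scale, points with ± SE, at day 1 (light) and day 3 (dark); vertical lines mark 0 and the median of all tested genes, −0.14 on both days. Day 3 points run from −1.34 (Nusap1) to −0.47 (Hmmr), and Hmmr and Bub1b are the genes whose day 1 point lies nearest to their day 3 point.

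The genes of mitotic entry, 8 members, were lower in Fzd5KO at day 3. At day 1, 2 of the 8 fell, with a median of −0.13, close to the 22.8% and −0.14 of all tested genes. At day 3 all 8 fell, with a median of −0.87, against 38.5% of all tested genes called lower. In this and the following lists of values the 3 libraries stand in the order of replicates 1, 2 and 3, with gene positions on mm10. The day 1 calls given gene by gene are those with TPM as deposited. Only Mki67, Top2a, Ncapd2, Bub1b and Hmmr kept that call under every setting tried. Ccna2 (chr3:36564865-36572150), cyclin A2, which acts with Cdk in S phase and at mitotic entry, was at 38.2, 39.8 and 33.3 TPM in Ctrl day 1, 31.5, 30.7 and 29.9 TPM in Fzd5KO day 1, 47.9, 48.4 and 45.7 TPM in Ctrl day 3 and 21.02, 22.7 and 21.5 TPM in Fzd5KO day 3. Its 4 groups did not overlap, and it fell on both days, with log2 changes of −0.26 ± 0.061 (adjusted p = 0.0114) on day 1 and −1.09 ± 0.061 (adjusted p = 4.05e-08) on day 3. Ccnb1 (chr13:100778650-100786570), cyclin B1, the main activator of Cdk1, was at 22.7, 20.9 and 21.6 TPM in Ctrl day 1, 17.8, 19.8 and 16.3 TPM in Fzd5KO day 1, 23.1, 24.4 and 25.5 TPM in Ctrl day 3 and 13.8, 12.9 and 16.1 TPM in Fzd5KO day 3. It fell on both days, with log2 changes of −0.27 ± 0.086 (adjusted p = 0.0420) on day 1 and −0.73 ± 0.086 (adjusted p = 1.78e-05) on day 3. Ccnb2 (chr9:70407692-70421547), the related cyclin B2, was at 19.04, 20.6 and 18.5 TPM in Ctrl day 1, 19.7, 17.4 and 19.4 TPM in Fzd5KO day 1, 29.6, 29.8 and 24.7 TPM in Ctrl day 3 and 12.9, 14.2 and 13.7 TPM in Fzd5KO day 3. Its day 1 groups overlapped, with a change of −0.042 ± 0.079 (adjusted p = 0.720), whereas at day 3 it fell, with a log2 change of −0.99 ± 0.079 (adjusted p = 7.26e-07).

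Cdk1 (chr10:69335146-69352938), the kinase these cyclins activate, was at 31.5, 26.9 and 30.9 TPM in Ctrl day 1, 30.2, 25.98 and 25.7 TPM in Fzd5KO day 1, 39.1, 38.5 and 42.2 TPM in Ctrl day 3 and 18.96, 19.2 and 17.4 TPM in Fzd5KO day 3. The day 1 groups overlapped, at −0.12 ± 0.077 (adjusted p = 0.261). At day 3 the Fzd5KO mean was 46.4% of Ctrl, a change of −1.07 ± 0.077 (adjusted p = 3.16e-07). Cdc25c, a phosphatase that removes inhibitory phosphate from Cdk1, was the lowest of the 8 in level, at 5.88, 4.90 and 8.17 TPM in Ctrl day 1, 5.02, 4.53 and 4.88 TPM in Fzd5KO day 1, 6.43, 5.80 and 7.50 TPM in Ctrl day 3 and 3.66, 3.40 and 4.40 TPM in Fzd5KO day 3. It missed the call at day 1, at −0.31 ± 0.15 (adjusted p = 0.149), and passed it at day 3, at −0.65 ± 0.15 (adjusted p = 0.00255). Plk1 (chr7:122159439-122169873), polo-like kinase 1, which acts at centrosomes, kinetochores and the cleavage site, was at 15.4, 15.8 and 15.2 TPM in Ctrl day 1, 14.8, 14.4 and 14.2 TPM in Fzd5KO day 1, 18.9, 21.1 and 16.7 TPM in Ctrl day 3 and 10.3, 11.96 and 13.97 TPM in Fzd5KO day 3. Its Fzd5KO libraries lay below Ctrl on both days. The change was −0.093 ± 0.098 (adjusted p = 0.513) at day 1, which did not pass, and −0.61 ± 0.098 (adjusted p = 0.000227) at day 3. Aurka (chr2:172356190-172370535), Aurora A, the centrosome kinase, was at 17.1, 14.9 and 16.7 TPM in Ctrl day 1, 17.5, 16.7 and 14.6 TPM in Fzd5KO day 1, 23.6, 21.9 and 20.97 TPM in Ctrl day 3 and 12.2, 12.5 and 13.2 TPM in Fzd5KO day 3. The day 1 libraries were intermingled (0.00039, adjusted p = 0.998), and at day 3 Aurka fell, with a log2 change of −0.77 ± 0.077 (adjusted p = 5.25e-06). Nek2, which separates the centrosomes, was at 12.4 ± 1.14 and 11.1 ± 0.441 TPM in Ctrl and Fzd5KO at day 1 (mean ± SD) and fell from 16.8 ± 0.659 to 8.13 ± 0.488 TPM at day 3.

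Among the 6 members of chromosome structure, 4 fell at day 1 (median −0.31) and 6 at day 3 (median −0.90). The shares of all tested genes called lower were 22.8% and 38.5%. Mki67 (chr7:135689784-135716361), whose product Ki-67 coats mitotic chromosomes and is the usual marker of cycling cells, was at 51.9, 53.4 and 54.4 TPM in Ctrl day 1, 42.8, 42.6 and 42.8 TPM in Fzd5KO day 1, 76.1, 71.2 and 68.5 TPM in Ctrl day 3 and 34.5, 37.9 and 36.3 TPM in Fzd5KO day 3. The 4 groups did not overlap, and the replicates were close together, in particular the 3 Fzd5KO day 1 libraries. Mki67 fell on both days, with log2 changes of −0.31 ± 0.047 (adjusted p = 0.00108) on day 1 and −0.97 ± 0.047 (adjusted p = 1.10e-08) on day 3, when Fzd5KO held 50.4% of the Ctrl mean. Top2a (chr11:98992943-99024189), topoisomerase II alpha, which untangles sister chromatids, was the most abundant member, at 96.2, 103 and 96.5 TPM in Ctrl day 1, 78.2, 78.95 and 80.3 TPM in Fzd5KO day 1, 128, 121 and 126 TPM in Ctrl day 3 and 58.5, 64.3 and 57.2 TPM in Fzd5KO day 3. Its groups also did not overlap, with changes of −0.31 ± 0.047 (adjusted p = 0.00103) on day 1 and −1.05 ± 0.047 (adjusted p = 5.73e-09) on day 3. The condensin genes were less even at day 1. Ncapd2 fell by 0.51 and Ncapg by 0.32 on the log2 scale (limma adjusted p = 0.00444 and 0.00913), Smc4 was at −0.24 (adjusted p = 0.0526) and Smc2 at 0.0013 (adjusted p = 0.996). At day 3 these 4 genes changed by −0.78 to −1.04.

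Of the 6 centromere and kinetochore genes 3 fell at day 1 (median −0.27) and all 6 at day 3 (median −0.92). The shares of all tested genes called lower were 22.8% and 38.5%. Cenpa (chr5:30666777-30674830), the histone H3 variant that marks centromeres, was at 22.7, 29.97 and 27.1 TPM in Ctrl day 1, 22.6, 19.7 and 20.1 TPM in Fzd5KO day 1, 34.1, 33.3 and 32.6 TPM in Ctrl day 3 and 15.8, 17.9 and 18.1 TPM in Fzd5KO day 3. It fell, with a log2 change of −0.33 ± 0.091 (adjusted p = 0.0233) on day 1, with Ctrl replicate 1 only just above the highest Fzd5KO library, and at −0.91 ± 0.091 (adjusted p = 5.05e-06) on day 3. Cenpe (chr3:135212537-135273611), a kinetochore motor, was at 13.9, 14.4 and 12.1 TPM in Ctrl day 1, 10.6, 10.7 and 12.3 TPM in Fzd5KO day 1, 18.7, 17.9 and 19.2 TPM in Ctrl day 3 and 11.03, 9.82 and 9.24 TPM in Fzd5KO day 3. It missed the call at day 1, at −0.25 ± 0.084 (adjusted p = 0.0534), and fell on day 3, with a log2 change of −0.83 ± 0.084 (adjusted p = 5.36e-06). Cenpf (chr1:189640606-189688086), a large kinetochore protein of G2 and mitosis, was at 9.87, 9.90 and 10.1 TPM in Ctrl day 1, 7.66, 8.15 and 7.86 TPM in Fzd5KO day 1, 15.8, 14.9 and 14.6 TPM in Ctrl day 3 and 7.23, 5.11 and 6.39 TPM in Fzd5KO day 3. Its groups did not overlap, and it fell on both days, with log2 changes of −0.30 ± 0.091 (adjusted p = 0.0348) at day 1 and −1.16 ± 0.091 (adjusted p = 6.80e-07) at day 3.

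Ndc80 (chr17:71496100-71526857), a subunit of the complex that grips microtubules, was at 7.14, 8.25 and 7.27 TPM in Ctrl day 1, 6.19, 5.86 and 5.94 TPM in Fzd5KO day 1, 8.99, 7.74 and 7.77 TPM in Ctrl day 3 and 3.42, 4.05 and 4.17 TPM in Fzd5KO day 3. It fell on both days, with log2 changes of −0.29 ± 0.086 (adjusted p = 0.0320) and −0.91 ± 0.086 (adjusted p = 3.05e-06). Spc25 (chr2:69193895-69206194), a partner of Ndc80 in the same complex, had the highest change of any member at day 1, at 8.44, 9.96 and 8.70 TPM in Ctrl day 1, 9.27, 9.96 and 9.55 TPM in Fzd5KO day 1, 11.6, 11.7 and 10.6 TPM in Ctrl day 3 and 3.97, 6.52 and 4.38 TPM in Fzd5KO day 3. Its day 1 groups overlapped, with a change of 0.081 ± 0.13 (adjusted p = 0.677), whereas at day 3 it fell, with a log2 change of −1.07 ± 0.13 (adjusted p = 2.48e-05), with Fzd5KO replicate 2 above replicates 1 and 3. The remaining subunit on the list, Nuf2, was at 8.63 ± 1.03 and 7.36 ± 0.445 TPM at day 1 and fell from 10.9 ± 0.651 to 5.25 ± 0.136 TPM at day 3 (mean ± SD of Ctrl and Fzd5KO).

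The 5 spindle assembly checkpoint genes had the widest range of day 1 changes of the roles, from −0.67 for Bub1b to −0.018 for Bub1. Bub1b (chr2:118598211-118641591), the checkpoint protein BubR1, which restrains Cdc20, was at 23.1, 22.3 and 20.4 TPM in Ctrl day 1, 12.2, 16.2 and 12 TPM in Fzd5KO day 1, 26.9, 23.9 and 28.7 TPM in Ctrl day 3 and 12.4, 16.01 and 14.2 TPM in Fzd5KO day 3. Its day 1 change of −0.67 ± 0.12 (adjusted p = 0.00274) was the largest of the list, and its day 3 change was −0.86 ± 0.12 (adjusted p = 6.96e-05). Bub1 (chr2:127801122-127831865), a kinase that recruits the checkpoint to kinetochores, was at 10.04, 9.78 and 11.99 TPM in Ctrl day 1, 9.61, 10.4 and 11.3 TPM in Fzd5KO day 1, 15.2, 15.8 and 14.5 TPM in Ctrl day 3 and 7.19, 5.76 and 6.41 TPM in Fzd5KO day 3. Its day 1 groups overlapped, at −0.018 ± 0.093 (adjusted p = 0.908), and its day 3 change of −1.12 ± 0.093 (adjusted p = 1.04e-06) was among the largest. Bub3 (chr7:131560222-131571895), which carries both to the kinetochore, was at 29.5, 29.96 and 27.3 TPM in Ctrl day 1, 22.7, 23.8 and 27.5 TPM in Fzd5KO day 1, 39.4, 37.3 and 33.99 TPM in Ctrl day 3 and 22.4, 23.3 and 23.3 TPM in Fzd5KO day 3. It fell on both days, with log2 changes of −0.22 ± 0.073 (adjusted p = 0.0456) and −0.66 ± 0.073 (adjusted p = 1.21e-05), although at day 1 Fzd5KO replicate 3 reached the Ctrl range. Ttk, the checkpoint kinase Mps1, fell from 6.46 ± 0.768 to 4.45 ± 0.5002 TPM at day 1 and from 8.96 ± 0.176 to 4.31 ± 0.585 TPM at day 3. Mad2l1, the inhibitor Mad2, was at 13.9 ± 0.852 and 12.6 ± 0.570 TPM at day 1, which did not pass, and fell from 18.3 ± 0.291 to 8.49 ± 0.0987 TPM at day 3. In all, 3 of these 5 fell at day 1 and 5 at day 3, against 22.8% and 38.5% of all tested genes.

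The chromosomal passenger complex corrects faulty attachments and later acts at the cleavage furrow. At day 1, 2 of its 4 genes fell, and 4 at day 3, against 22.8% and 38.5% of all tested genes. Its median at day 3, −0.74, was the smallest fall of the 8 roles. Aurkb (chr11:69045647-69051664), Aurora B, its kinase, was at 19.5, 21.3 and 18.2 TPM in Ctrl day 1, 16, 14.6 and 15.02 TPM in Fzd5KO day 1, 24.9, 21.5 and 22.9 TPM in Ctrl day 3 and 9.0, 11.9 and 9.35 TPM in Fzd5KO day 3. It fell on both days, with log2 changes of −0.35 ± 0.096 (adjusted p = 0.0238) on day 1 and −1.13 ± 0.096 (adjusted p = 1.30e-06) on day 3, when Fzd5KO held 43.5% of Ctrl. Birc5 (chr11:117849251-117855743), survivin, which brings the complex to centromeres, was at 32.3, 36.3 and 36.6 TPM in Ctrl day 1, 35.2, 34.1 and 30.9 TPM in Fzd5KO day 1, 45.1, 39.6 and 42.4 TPM in Ctrl day 3 and 30.8, 28.04 and 25.8 TPM in Fzd5KO day 3. Its day 1 groups overlapped, with a change of −0.067 ± 0.078 (adjusted p = 0.555), and its day 3 fall was small for the list, at −0.57 ± 0.078 (adjusted p = 5.73e-05). Incenp (chr19:9872296-9899551), the scaffold of the complex, was at 26.5, 31.6 and 26.9 TPM in Ctrl day 1, 22.7, 22.4 and 28.3 TPM in Fzd5KO day 1, 38.6, 33.3 and 33.1 TPM in Ctrl day 3 and 20.5, 18.6 and 21.6 TPM in Fzd5KO day 3. Fzd5KO replicate 3 lay within the Ctrl range at day 1, where the change of −0.21 ± 0.10 (adjusted p = 0.158) did not pass, and the day 3 change was −0.76 ± 0.10 (adjusted p = 5.41e-05). Cdca8, borealin, fell from 17.4 ± 0.928 to 14.4 ± 1.07 TPM at day 1 and from 21.3 ± 1.55 to 12.6 ± 0.521 TPM at day 3.

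The 5 spindle motors and assembly factors had the largest median fall of the roles at day 3, −1.07. At day 1, 3 of them fell, against 22.8% of all tested genes. Kif11 (chr19:37376403-37421859), the motor Eg5 that pushes spindle poles apart, was at 18.8, 20.4 and 19.4 TPM in Ctrl day 1, 15.4, 15.3 and 16.5 TPM in Fzd5KO day 1, 26.2, 25.3 and 25.3 TPM in Ctrl day 3 and 11.1, 11.97 and 11.8 TPM in Fzd5KO day 3. The 4 groups did not overlap, with changes of −0.30 ± 0.051 (adjusted p = 0.00245) and −1.08 ± 0.051 (adjusted p = 1.01e-08). Tpx2 (chr2:152847964-152895321), which activates Aurora A and nucleates microtubules, was at 11.7, 11.3 and 11.6 TPM in Ctrl day 1, 9.99, 9.86 and 10.1 TPM in Fzd5KO day 1, 17.5, 15.5 and 15.3 TPM in Ctrl day 3 and 7.06, 8.08 and 7.69 TPM in Fzd5KO day 3. It fell on both days, with log2 changes of −0.19 ± 0.064 (adjusted p = 0.0486) on day 1 and −0.99 ± 0.064 (adjusted p = 1.30e-07) on day 3. Nusap1 (chr2:119618298-119651244), which bundles spindle microtubules, was at 11.8, 12.2 and 11.7 TPM in Ctrl day 1, 10.6, 10.6 and 8.91 TPM in Fzd5KO day 1, 21.6, 17.4 and 16.8 TPM in Ctrl day 3 and 4.78, 7.42 and 8.34 TPM in Fzd5KO day 3. Its day 3 change of −1.34 ± 0.16 (adjusted p = 1.69e-05) was the largest of the list, with Fzd5KO replicate 1 lowest and Ctrl replicate 1 highest, while its day 1 change of −0.23 ± 0.16 (adjusted p = 0.294) did not pass. Kif2c, which depolymerizes microtubules at centromeres, was at 9.26 ± 0.233 and 7.87 ± 0.566 TPM at day 1 and fell from 12.7 ± 0.833 to 5.57 ± 0.914 TPM at day 3.

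Hmmr (chr11:40701395-40733422), which binds hyaluronan and spindle microtubules, was at 12.6, 13.02 and 13.03 TPM in Ctrl day 1, 8.11, 9.67 and 8.92 TPM in Fzd5KO day 1, 16.8, 14.7 and 14.8 TPM in Ctrl day 3 and 10.3, 10.9 and 11.3 TPM in Fzd5KO day 3. Its libraries were lower in Fzd5KO on both days without overlap, with changes of −0.49 ± 0.072 (adjusted p = 0.000931) at day 1 and −0.47 ± 0.072 (adjusted p = 0.000148) at day 3. The day 1 fall was among the largest of the list and the day 3 fall was the smallest.

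Of the 6 genes of the central spindle and cytokinesis 5 fell at day 1 (median −0.26), and all 6 at day 3 (median −0.89). The shares of all tested genes called lower were 22.8% and 38.5%. Kif20a, a motor that brings Aurora B and Plk1 to the central spindle, was at 10.8, 10.9 and 11.03 TPM in Ctrl day 1, 8.80, 8.34 and 9.87 TPM in Fzd5KO day 1, 15.5, 15.9 and 15.2 TPM in Ctrl day 3 and 8.13, 7.63 and 7.59 TPM in Fzd5KO day 3. It fell on both days, with log2 changes of −0.25 ± 0.062 (adjusted p = 0.0142) on day 1 and −0.91 ± 0.062 (adjusted p = 1.99e-07) on day 3, with no overlap on either day. Prc1, which bundles the central spindle, fell from 30.4 ± 1.28 to 25.7 ± 1.33 TPM at day 1 and from 36.8 ± 2.68 to 22.1 ± 0.889 TPM at day 3. Kif23 and Racgap1 form the centralspindlin complex, which recruits Ect2, the exchange factor that activates RhoA. Their means in Fzd5KO were 79.2% (Kif23), 81.6% (Racgap1) and 78.7% (Ect2) of Ctrl at day 1 and 53.8%, 51.7% and 56.8% at day 3. With TPM as deposited all 3 were called lower on both days. None of the 3 kept its day 1 call under every scaling. Anln, anillin, a scaffold of the contractile ring, missed the call at day 1 (−0.24, adjusted p = 0.0567) and fell on day 3, with a log2 change of −0.99 ± 0.083 (adjusted p = 1.13e-06).

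Both partners of the anaphase-promoting complex on the list, a ubiquitin ligase that ends the hold on anaphase, fell at day 3. The share of all tested genes called lower was 38.5%. Cdc20 (chr4:118432901-118437352), its activator and the target of the checkpoint, was at 21.7, 21.5 and 21.2 TPM in Ctrl day 1, 18.8, 18.6 and 18.6 TPM in Fzd5KO day 1, 28.9, 26.9 and 26.2 TPM in Ctrl day 3 and 14.6, 17.1 and 14.9 TPM in Fzd5KO day 3. The 4 groups did not overlap, and it fell on both days, with log2 changes of −0.19 ± 0.059 (adjusted p = 0.0348) on day 1 and −0.78 ± 0.059 (adjusted p = 4.86e-07) on day 3. Ube2c (chr2:164769898-164778822), the enzyme that hands it ubiquitin, was at 37.6, 38.7 and 34.3 TPM in Ctrl day 1, 36.8, 35.2 and 32.4 TPM in Fzd5KO day 1, 47.8, 55.7 and 48.02 TPM in Ctrl day 3 and 25.2, 26.7 and 23.1 TPM in Fzd5KO day 3. Its day 1 groups overlapped, with a change of −0.081 ± 0.077 (adjusted p = 0.466), and its day 3 change was −0.99 ± 0.077 (adjusted p = 6.26e-07).

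From day 1 to day 3 the mitosis genes moved in opposite directions in the genotypes. In Ctrl 31 of 42 members rose and 0 fell, against 25% of all tested genes called higher and 11% called lower, with a median of 0.34 (log2) beside 0.11 for all tested genes. The largest rises were those of Nusap1 at 0.59 ± 0.16 (adjusted p = 0.0126), Cenpf at 0.56 ± 0.091 (adjusted p = 0.000811) and Ccnb2 at 0.51 ± 0.079 (adjusted p = 0.000549). The 11 that did not pass were Ccnb1, Cdc25c, Plk1, Smc4, Ncapd2, Ndc80, Spc25, Bub1b, Aurkb, Kif23 and Ect2, with changes between 0.069 (Cdc25c) and 0.29 (Spc25). In 39 members the Ctrl day 3 libraries lay above the Ctrl day 1 libraries, against 33% of tested genes. The exceptions were Cdc25c, Ndc80 and Kif23. Without Ctrl day 1 replicate 1 the members called higher numbered 26. The other scalings moved the median of all genes in this comparison by −0.11 to −0.022 and called 23 to 31 members higher. The percentages of tested genes called higher and lower then became 15.3% and 15.8% with quantile normalization, 12.6% and 17.3% with scaling by median of ratios, 25.7% and 15.02% with rescaled TPM.

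In Fzd5KO over the same interval 32 of 42 members fell and 1 rose, against 10.5% of tested genes called lower and 34.4% called higher. The median was −0.32 for the members and 0.11 for all tested genes, so the list was below 0 and all tested genes above 0 at the median. The largest falls were those of Spc25, −0.85 ± 0.13 (adjusted p = 0.000224), and Bub1, −0.62 ± 0.093 (adjusted p = 0.000198). The member that rose was Hmmr, at 0.26 ± 0.072 (adjusted p = 0.0113). It was called under none of the other scalings and not when Fzd5KO day 1 replicate 1 was left out. The 9 that did not pass were Cdc25c, Plk1, Ncapd2, Cenpe, Bub1b, Bub3, Ttk, Cdca8 and Incenp. In 35 members the day 3 libraries lay below those of day 1 (14.5% of tested genes) and in 1 above them (39.6%). With the other scalings 38 or 39 members fell, and the percentages of tested genes called higher and lower were 20.95% and 19.7% with quantile normalization, 24.5% and 19.1% with scaling by median of ratios, 22.3% and 30.8% with rescaled TPM.

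**Figure D3:**
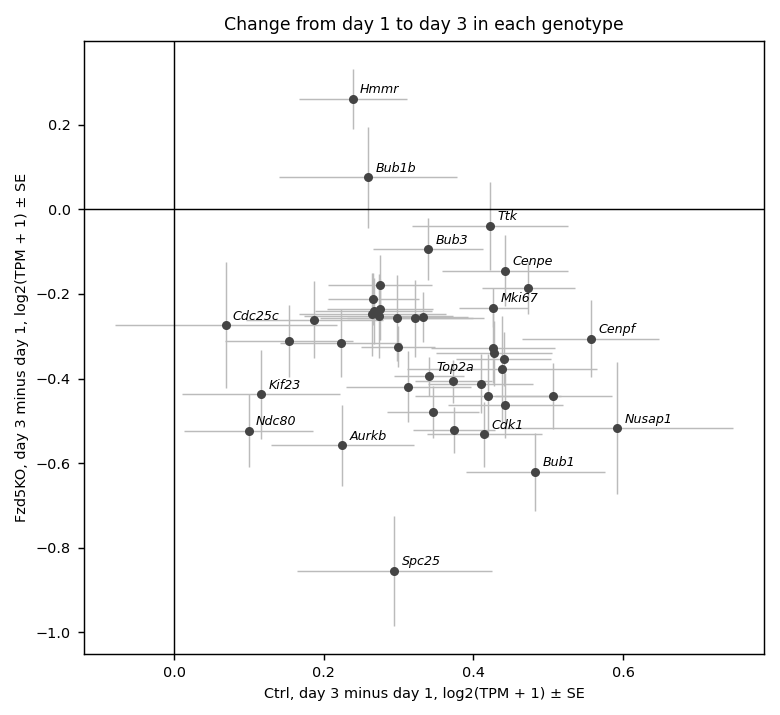
Change from day 1 to day 3 on the log2(TPM + 1) scale in Ctrl (horizontal axis) and in Fzd5KO (vertical axis), 1 point with ± SE on both axes for each of the 42 mitosis genes, some named. With TPM as deposited every point lies right of 0, and all but Hmmr (0.26) and Bub1b (0.075) lie below 0; under some other scalings Cdc25c, Ndc80 and Kif23 fall left of 0 and Bub1b below 0.

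The difference of the knockout effect between the days, tested as an interaction over the same 12 libraries, was below 0 for 39 of 42 members that passed and above 0 for 0, against 19.1% of all tested genes called lower and 25.3% called higher. The median was −0.64 for the members and 0.0092 for all tested genes. It was largest for Spc25 at −1.15 ± 0.18 (adjusted p = 0.000373), Nusap1 at −1.11 ± 0.22 (adjusted p = 0.00168) and Bub1 at −1.10 ± 0.13 (adjusted p = 3.88e-05). The 3 members that did not pass were Cdc25c at −0.34 ± 0.21 (adjusted p = 0.215), Bub1b at −0.18 ± 0.17 (adjusted p = 0.407) and Hmmr at 0.022 ± 0.10 (adjusted p = 0.881). Ttk passed with an adjusted p of 0.0248 and lost the call under 7 of the settings, with adjusted p between 0.0504 and 0.0613. Without Ctrl day 1 replicate 1 the members called lower numbered 38. Rescaled TPM moved the median of all genes in this comparison by −0.17 and called 21.7% of them higher and 36.8% lower, with 39 members still called. This comparison and the 4 above share libraries, so their counts are not independent of each other.

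Further mitosis genes and the DNA replication genes were also mostly lower in Fzd5KO at day 3. Of 83 tested further mitosis genes (such as other kinesins, condensin subunits and centrosome proteins) 28 fell and 0 rose at day 1, and 76 fell and 1 rose at day 3, with medians of −0.23 and −0.79. All tested genes had 22.8% called lower at day 1 and 38.5% at day 3, with a median of −0.14 on both days. Among them Kif20b, a kinesin of cytokinesis, changed by −1.14 ± 0.072 (adjusted p = 1.08e-07) at day 3, and Ncaph, the condensin subunit, by −1.19 ± 0.090 (adjusted p = 5.17e-07). Melk and Kif15 fell at day 3 by 0.89 ± 0.066 and 0.96 ± 0.066. Of 43 DNA replication genes 22 fell and 0 rose at day 1, and 41 fell and 0 rose at day 3 (medians −0.27 and −0.88). The other scalings called 9 to 14 of the further mitosis genes and 8 to 10 of the replication genes lower at day 1, with up to 1 of the mitosis genes higher, and 70 to 79 and 38 to 42 lower at day 3. Under these scalings 5.72% to 9.99% of all tested genes were called lower at day 1 and 28.8% to 49.4% at day 3. Mcm7, a subunit of the replicative helicase, changed by −1.20 ± 0.049 and Pold1, the catalytic subunit of a replicative polymerase, by −1.28 ± 0.052 at day 3 (adjusted p = 2.82e-09 and 2.93e-09).

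The factors that switch mitosis genes had medians nearer 0. Of 21 tested, 4 fell at day 1 and 13 fell and 1 rose at day 3, with medians of −0.18 and −0.40. Of all tested genes 22.8% were called lower at day 1 and 38.5% at day 3, with a median of −0.14 on both days, so the day 1 count and median of these factors lay near those of all genes. Foxm1, an activator of G2 and mitosis genes, had a change of −0.30 ± 0.11 (adjusted p = 0.0689) on day 1 and fell on day 3, with a log2 change of −0.74 ± 0.11 (adjusted p = 0.000120). Mybl2, which encodes B-Myb, had a change of −0.18 ± 0.11 (adjusted p = 0.229) on day 1 and fell on day 3, with a log2 change of −0.44 ± 0.11 (adjusted p = 0.00326). At day 3 the other scalings called 8 to 15 of these factors lower, and 28.8% to 49.4% of all tested genes. E2f8, an atypical repressor of the E2F family, changed by −0.999 ± 0.080 (adjusted p = 7.79e-07) at day 3. Of 17 genes of the anaphase-promoting complex and its regulators 3 fell at day 1, no larger a share than the 22.8% of all tested genes, with a median of −0.15, and 11 fell at day 3, with a median of −0.30. With the other scalings 1 fell at day 1 and 7 to 12 at day 3, when median-of-ratios scaling called 2 higher. The largest of these changes was that of Fbxo5, an inhibitor of the complex that accumulates in cycling cells, at −1.03 ± 0.087 (adjusted p = 1.30e-06). Of 18 G1 cyclins, their kinases and inhibitors 7 rose and 8 fell at day 3, beside 24.3% and 38.5% of all tested genes. Their median was −0.14, as for all tested genes. With the other scalings 6 to 8 of them fell, when 28.8% to 49.4% of all tested genes were called lower. Cdkn1a, the inhibitor p21, rose from 30.5 ± 1.32 to 62.5 ± 2.36 TPM, at 1.01 ± 0.055 (adjusted p = 2.84e-08), after 0.10 ± 0.055 (adjusted p = 0.198) at day 1. Ccng2, an atypical cyclin of arrested cells, rose, with a log2 change of 1.43 ± 0.051 (adjusted p = 1.07e-09). Cdkn2b, an inhibitor of Cdk4 and Cdk6, rose, with a log2 change of 0.70 ± 0.049 (adjusted p = 2.30e-07). Cdk4 itself fell, with a log2 change of −1.09 ± 0.037 (adjusted p = 7.66e-10), and the Cdk6 mean was also lower. The inhibitors did not all move in the same direction. For the inhibitor Cdkn2c the day 3 mean was lower in Fzd5KO (3.33 TPM) than in Ctrl (7.94 TPM). The G1 cyclins Ccnd1 and Ccnd2 had higher day 3 means in Fzd5KO (41.0 and 97.6 TPM) than in Ctrl (34.6 and 67.7 TPM). Both were also higher in Fzd5KO at day 1.

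**Figure D4:**
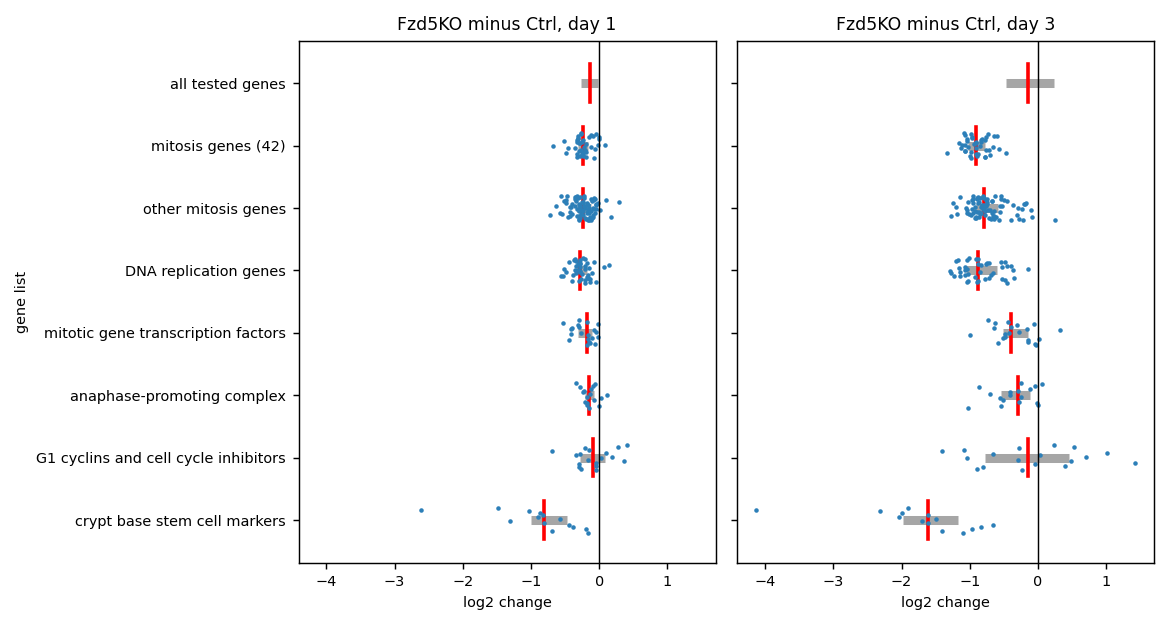
Fzd5KO minus Ctrl at day 1 (left) and day 3 (right) on the log2(TPM + 1) scale for gene lists: dots are tested genes, red bars medians and grey bars the middle 50% of the genes, and all tested genes are shown without dots. The mitosis genes (median −0.24, then −0.91) lie close to the other mitosis and DNA replication genes, and the crypt base stem cell markers reach further down.

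The lower mitosis gene levels stood beside other changes in the cell types represented. Of 14 tested crypt base stem cell markers 12 fell at day 1 and 14 at day 3 (medians −0.81 and −1.61). Their summed level was 573 to 601 TPM in Ctrl day 1, 230.1 to 241 TPM in Fzd5KO day 1, 845 to 905 TPM in Ctrl day 3 and 165 to 177 TPM in Fzd5KO day 3. Olfm4, a marker of crypt base stem cells, changed by −2.61 ± 0.041 at day 1 and −4.13 ± 0.041 at day 3 (adjusted p = 2.11e-11 and 1.32e-13). At day 1 the summed mitosis genes were at 943.1 ± 18.4 TPM in Ctrl and 790.1 ± 1.92 TPM in Fzd5KO (mean ± SD, n = 3). Of the 16 epithelium markers 5 rose and 4 fell at day 1, and 12 rose and 3 fell at day 3. Among all tested genes 2.13% rose and 22.8% fell at day 1, and 24.3% rose and 38.5% fell at day 3. The sum of the epithelium markers at day 3 was 15672 to 16490 TPM in Ctrl and 31990 to 32740 TPM in Fzd5KO. Krt20 and Sis, genes of mature villus cells, rose at day 3. Their log2 changes were 1.28 ± 0.031 and 1.48 ± 0.030 (adjusted p = 7.14e-11 and 3.78e-11). Lct did not rise with them: its day 3 libraries overlapped, with means of 568 (Ctrl) and 546 TPM (Fzd5KO). At day 1 the knockout had the lower mean for Sis (1551 TPM, Ctrl 2086 TPM) and the higher mean for Krt20 (545 TPM, Ctrl 494 TPM).

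Markers of immune cells were higher in Fzd5KO at day 3. All 11 tested T cell markers, 9 of 10 B and plasma cell markers and 8 of 10 myeloid markers rose then, against 24.3% of all tested genes. At day 1, 4 of the T cell, 3 of the B and plasma cell and 2 of the myeloid markers fell, against 22.8% of all tested genes called lower on that day. The 13 T cell markers summed to 185 to 206 TPM in Ctrl day 1, 122 to 145 in Fzd5KO day 1, 44.6 to 49.7 in Ctrl day 3 and 170.4 to 196 in Fzd5KO day 3. The 12 B and plasma cell markers summed to 37.7 to 46.8, 24.9 to 26.9, 37.1 to 51.1 and 157 to 187 TPM in the same groups. Of the 13 myeloid markers S100a8 and S100a9 were listed at 0 in Ctrl day 1 and S100a8 in Fzd5KO day 1, and the sums were 25 to 28.4, 19.5 to 21.3, 16.8 to 22.3 and 44.9 to 48.9 TPM. Fibroblast and muscle markers summed to 16.5 to 20.2 TPM in Ctrl day 3 and 18.8 to 20.7 TPM in Fzd5KO day 3, and endothelial markers to 4.90 to 5.87 and 5.65 to 6.19 TPM. The mitosis genes were lower in Fzd5KO at day 1, where the summed T cell markers were lower, and at day 3, where they were higher. The part of these cells in the mitosis gene result was not tested.

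**Figure D5:**
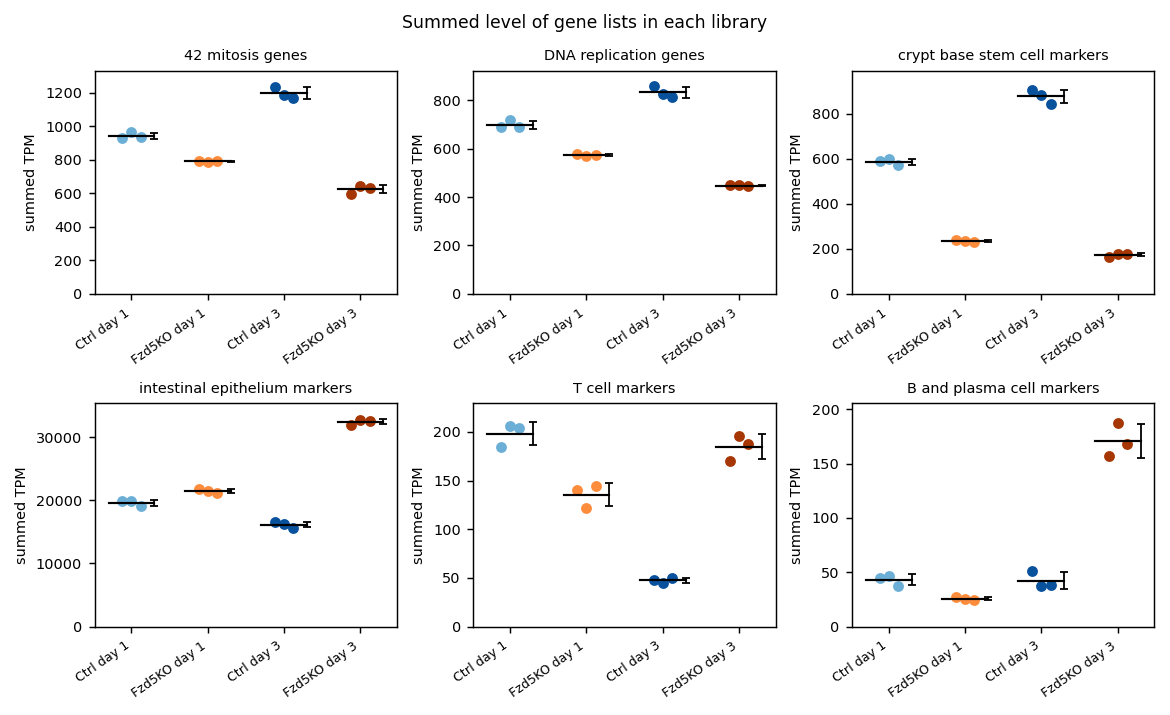
Summed TPM of 6 gene lists in each of the 12 libraries, points by group, with the mean (line) and SD (bar), n = 3; each vertical axis starts at 0. The mitosis genes, the DNA replication genes and the crypt base stem cell markers have the order Ctrl day 3, Ctrl day 1, Fzd5KO day 1, Fzd5KO day 3. The epithelium and immune lists do not.

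The genes whose pattern over the 12 libraries was most like that of the mitosis genes were found by Pearson correlation with the members' mean standardized log2(TPM + 1), as a description. The 12 libraries fall in 4 groups, so these points are not independent. The 10 highest outside the list were Chga (0.996), Myb, Kcnq1, Zfp398, Ivns1abp, Kcne3, Sox4, Tmpo, Pdcd4 and Gm8979 (0.993). Myb, a transcription factor of cycling progenitors, had mean levels of 33.9, 24.3, 49.1 and 15.8 TPM in Ctrl day 1, Fzd5KO day 1, Ctrl day 3 and Fzd5KO day 3. Chga, the chromogranin of enteroendocrine cells, had 52.7, 38.9, 90.6 and 22.9 TPM. Of the members 37 of 42 had r above 0.9 with this mean, to which each contributes, beside 10.4% of all tested genes, 59% of the other mitosis genes, 65.1% of the DNA replication genes and 13 of the 14 crypt base stem cell markers (92.9%). The lowest were Hmmr at 0.752, Cdc25c at 0.805, Spc25 at 0.845, Bub1b at 0.859 and Smc2 at 0.863.

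Of the 42 members 13 share exon bases with another annotated gene, and the sources used here do not say if reads were counted by strand, so some of their reads may belong to the neighbour. They are Ccna2, Cdc20, Cdc25c, Cdca8, Kif20a, Ncapd2, Ncapg, Nek2, Nusap1, Plk1, Prc1, Top2a and Ube2c. Ncapd2 overlaps Gm28967 and Scarna10 on its own strand, with up to 577 and 36.3 TPM in a library, so its level is uncertain. The other 29 members gave 15 lower at day 1, 29 lower at day 3, 21 higher over time in Ctrl, 23 lower and 1 higher over time in Fzd5KO, and 27 lower in the difference between days. The shares of all tested genes were 22.8% lower at day 1, 38.5% lower at day 3 and 25% higher over time in Ctrl. They were 10.5% lower and 34.4% higher over time in Fzd5KO, and 19.1% lower in the difference.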

How the data were processed

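Bulk RNA-seq was measured in 12 libraries, 3 for each of Ctrl and Fzd5KO at day 1 and day 3, made from total RNA with a kit that marks strand, per the labels. The authors deposited 1 table of TPM values. STAR 2.7.3a, RSEM (version not named), bcl2fastq 2.18 and the build mm10 are listed in the submitters' processing notes, which give no roles. The sources used here do not name the annotation or say if counting used strand. Because TPM has a fixed total, a few abundant RNAs can move the values of the rest, and further scalings were compared. Identifiers and positions came from GENCODE mouse release 21 and promoter sequences from RefSeq.

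Values were tested as log2(TPM + 1), which understates the change of low genes, with limma 3.58.1 in R 4.3.3: 4 group means, 8 residual degrees of freedom, an intensity trend, and Benjamini-Hochberg adjustment over 14510 genes (those reaching 1 TPM in 3 or more libraries), called under 0.05. An ± after a log2 change is its SE, and an adjusted p beside it is from this test. With 3 libraries against 3 an exact permutation test of 1 gene could not go below p = 0.1. The procedure was also run on simulated data, with independent noise and a small set of genes changed in Fzd5KO day 3 only. That simulation did not cover the effect of the scaling. Every member could be named, values in each library were given for 24 members chosen by role and for those with the largest rise or fall in a comparison, and from other lists up to 4 called genes with the smallest p were eligible, with Foxm1, Mybl2, Cdkn1a and Fzd5 named regardless. The members and lists were chosen with earlier results of these data known. The alternatives changed the pseudocount (0.1 or 5), the filter (none or 5 TPM), the scaling (quantile, median of ratios, or TPM rescaled after dropping the 20 most abundant genes and mitochondrial, small RNA and predicted genes) or limma's settings, added the replicate number as a block, or left out a library. Plots used matplotlib 3.10.9 (Python 3.11.15).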

Additional observations from a re-analysis of the deposited data

Results flagged for a closer look

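For 39 of the 42 mitosis genes the Fzd5KO minus Ctrl change differed between day 3 and day 1, by limma's test of that difference with an adjusted p under 0.05 over all tested genes, of which 19.1% were called lower and 25.3% higher. All 39 differences were below 0, so the day 3 change was the lower one. The values that follow are day 3 change minus day 1 change on the log2(TPM + 1) scale. Among the genes of mitotic entry they were Ccna2 −0.83, Ccnb1 −0.46, Ccnb2 −0.95, Cdk1 −0.95, Plk1 −0.51, Aurka −0.77 and Nek2 −0.82. For the chromosome structure genes they were Mki67 −0.66, Top2a −0.74, Smc2 −0.82, Smc4 −0.54, Ncapg −0.51 and Ncapd2 −0.53. Among the centromere and kinetochore genes they were Cenpa −0.58, Cenpe −0.59, Cenpf −0.86, Ndc80 −0.62, Nuf2 −0.73 and Spc25 −1.15. For the spindle assembly checkpoint genes they were Bub1 −1.10, Bub3 −0.43, Mad2l1 −0.90 and Ttk −0.46. Among the genes of the chromosomal passenger complex they were Aurkb −0.78, Birc5 −0.51, Cdca8 −0.45 and Incenp −0.55. For the spindle motors and assembly factors they were Kif11 −0.78, Kif2c −0.86, Tpx2 −0.80 and Nusap1 −1.11. Among the genes of the central spindle and cytokinesis they were Kif20a −0.66, Kif23 −0.55, Prc1 −0.48, Anln −0.75, Racgap1 −0.62 and Ect2 −0.45. For the partners of the anaphase ubiquitin ligase they were Cdc20 −0.59 and Ube2c −0.91. Cdc25c, Bub1b and Hmmr did not pass. The contrast uses all 4 groups, and no cause of the difference was tested. With 3 libraries in a group, the gap of a single library to the others of its group was not tested.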

How the results depend on the processing

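The call of 42 lower members at day 3 kept its direction throughout, with 41 called after quantile normalization, when Cdc25c was at −0.39 (adjusted p = 0.0586), and the median change was −0.99 with a pseudocount of 0.1, −0.72 with 5, −0.78 after quantile normalization, −0.77 after median-of-ratios scaling and −1.05 with rescaled TPM. At day 1 the medians were −0.11, −0.081 and −0.14 with the 3 scalings, and the members called lower numbered 5, 5 and 8, or 13 with no filter. Over time in Ctrl the median was 0.25 after quantile normalization and 0.21 after scaling by median of ratios. Over time in Fzd5KO it was −0.25 with a pseudocount of 5 and −0.46, −0.46 and −0.57 with the scalings, each of which called 0 members higher. The median difference between days was −0.50 with a pseudocount of 5 and −0.87 with rescaled TPM. Leaving out each library in turn gave 11 to 24 lower members at day 1 (medians −0.26 to −0.23), 42 each time at day 3 (−0.94 to −0.90), 26 to 34 higher over time in Ctrl (0.31 to 0.37), 25 to 33 lower and 0 to 1 higher in Fzd5KO (−0.36 to −0.31) and 38 to 40 lower in the difference (−0.66 to −0.61). For same-numbered replicates the correlation of deviations from group means ran from −0.069 to 0.093 over 18 pairs. Of 12 libraries 6 correlated best with their own number. With 3 libraries in a group this check cannot exclude pairing. With the replicate number as a block the fit called 18 members lower at day 1, 42 at day 3, 31 higher in Ctrl, 31 lower and 1 higher in Fzd5KO, and 39 lower in the difference. For the fits with this block, without a library or with no filter, the share of all tested genes called is not given. The member counts of those fits lack that comparison.

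Members close to 0 and outside the call changed sign under some settings. With quantile normalization signs turned for Ccnb2 0.096, Plk1 0.049, Bub1 0.14, Mad2l1 0.021, Birc5 0.062, Ube2c 0.046 at day 1, Cdc25c −0.061, Ndc80 −0.035 over time in Ctrl, Bub1b −0.069 over time in Fzd5KO. With median-of-ratios scaling signs turned for Ccnb2 0.12, Cdk1 0.046, Plk1 0.071, Nek2 0.016, Bub1 0.14, Mad2l1 0.036, Birc5 0.10, Ube2c 0.090 at day 1, Cdc25c −0.039, Ndc80 −0.011, Kif23 −0.0064 over time in Ctrl, Bub1b −0.061 over time in Fzd5KO. With rescaled TPM signs turned for Ccnb2 0.066, Plk1 0.012, Bub1 0.088, Birc5 0.042, Ube2c 0.029 at day 1, Bub1b −0.16 over time in Fzd5KO, Hmmr −0.17 in the difference between days. Leaving out 1 library in turn turned signs for Ccnb2 at day 1 (−0.074 to 0.011), Aurka at day 1 (−0.058 to 0.074), Smc2 at day 1 (−0.074 to 0.14), Bub1 at day 1 (−0.069 to 0.066), Cdc25c over time in Ctrl (−0.074 to 0.24), Bub1b over time in Fzd5KO (−0.0091 to 0.21), Ttk over time in Fzd5KO (−0.12 to 0.035) and Hmmr in the difference between days (−0.037 to 0.081). The cause of none of these changes was tested. TPM gives no depth, so the counting error of low members is unknown.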
